A study of Mus musculus with 6 samples.

Results

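Clock output genes are transcribed under the control of the circadian oscillator and pass its rhythm on to other genes of the cell. The 9 members described here were named by symbol (Dbp, Tef, Hlf, Nfil3, Bhlhe40, Bhlhe41, Ciart, Wee1 and Usp2), and all 9 were found among the 45706 genes of the deposited table and passed the filter on low counts. The table holds poly(A) RNA counts of 3 livers labelled Entpd8 knockout (KO 1 to KO 3) and 3 labelled wild type (WT 1 to WT 3). Entpd8 encodes NTPDase8, an enzyme that breaks down extracellular nucleotides, and the series asks about its part in liver ischemia. All mice were kept specific pathogen-free per the labels. Strain, sex, age, the time of day at sampling, how and in which cells the gene was disrupted, and whether these livers had been made ischemic are not stated in the labels used here. The labels also leave unsaid whether each library is a different mouse. The p-values thus set the genotype difference against the spread between libraries, which may be technical.

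In the oscillator, Clock pairs with Bmal1 (gene symbol Arntl) and activates genes through E-boxes, short DNA elements with the letters CACGTG. Among these are the genes of its own repressors, the Period and Cryptochrome proteins, and those of several members. Dbp, Tef and Hlf are closely related basic leucine zipper activators of the PAR family that bind the D-box. Nfil3 binds the same element as a repressor and normally cycles opposite to Dbp in liver. Bhlhe40 and Bhlhe41 (Dec1 and Dec2) occupy E-boxes as repressors, and Ciart (Chrono) represses Clock and Bmal1. Wee1 encodes a kinase that holds cells before mitosis, and Usp2 a deubiquitinase. In liver, PAR proteins drive rhythmic detoxification genes.

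Promoter sequence was read for 7 of the 9 members from RefSeq windows on GRCm38.p6 that run from 250 bases before to 50 bases after an annotated start. Bhlhe40 and Wee1 had no entry. The E-box CACGTG, which reads the same on both strands, occurred in the windows of 3 of these 7 members (Tef, Bhlhe41 and Ciart), while 7.15% of all 32851 windows hold it. That share is per window and not per gene, and Tef has 2 windows. The stretches below show these E-boxes in capitals with 12 flanking bases, 5′ to 3′ on the strand of the gene. They are shown because Clock, Bhlhe40 and Bhlhe41 proteins act through E-boxes in general, and binding to these stretches was not measured.
Ciart, chr3:95882255-95882356, minus strand: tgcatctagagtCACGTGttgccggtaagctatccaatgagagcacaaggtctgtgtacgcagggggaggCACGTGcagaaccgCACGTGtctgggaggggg
Bhlhe41, chr6:145865556-145865585, minus strand: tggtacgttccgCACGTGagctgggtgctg
Tef, first start, chr15:81802534-81802563, plus strand: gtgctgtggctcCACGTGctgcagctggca
Tef, second start, chr15:81811264-81811293, plus strand: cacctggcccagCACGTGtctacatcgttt
The 3 E-boxes of Ciart begin at -116, -58 and -44 from its start, that of Bhlhe41 at -153 and those of Tef at -127 and -138 from their own starts. The E-box variant CACGTT (both strands, in 4.68% of all windows), the D-box TTANGTAA (both strands, 2.32%) and the ROR element (both strands, 0.219%) matched in none of the 7 members' windows. The cyclic AMP element TGACGTCA (both strands, 1.79%) matched once, in Hlf, beginning at -9. These matches did not overlap, and a match describes the letters in the window alone.

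The libraries held 32768774 to 46473531 counts. Entpd8 fell in the livers labelled knockout, with 0.382, 0.723 and 1.09 CPM (counts scaled to library size with TMM factors) in KO 1, KO 2 and KO 3, against 39.0, 22.4 and 56.5 CPM in WT 1, WT 2 and WT 3. Hepatocyte markers summed to between 67420 and 86960 CPM in knockout and between 66470 and 82850 CPM in wild-type livers. Markers of some other cells moved with genotype, while the sums of endothelial, stellate cell and neutrophil markers overlapped between genotypes. At an adjusted p under 0.05 in edgeR, 9.8% of all genes tested passed as higher and 10.6% as lower. Of the B and plasma cell markers 3 of 4 tested rose (sums of 35.8 to 53.3 CPM in knockout and 1.15 to 2.81 CPM in wild-type livers), of the T and NK cell markers 2 of 6 (4.53 to 5.11 CPM in knockout and 1.67 to 2.23 CPM in wild type), of the erythroid markers 5 of 5 (1178 to 1546 CPM in knockout and 369 to 546 CPM in wild type) and of the cholangiocyte markers 2 of 5 (122 to 312 CPM in knockout and 80.5 to 109 CPM in wild type). Of the Kupffer cell markers 5 of 8 fell (54.5 to 78.8 CPM in knockout and 114 to 251 CPM in wild type), as did 1 of 8 endothelial (128 to 194 CPM in knockout and 161 to 210 CPM in wild type), 1 of 8 stellate cell (116 to 257 CPM in knockout and 185 to 271 CPM in wild type) and 1 of 7 hepatocyte markers. None of 6 neutrophil markers passed (73.9 to 99.97 CPM in knockout and 14.2 to 109 CPM in wild type), with Elane at 0 in KO 1 and WT 2 and Camp and Ngp at 0 in WT 3. Mitochondrially encoded transcripts took 10.1% to 11.7% of knockout and 6.52% to 8.34% of wild-type libraries. The part of these differences in the results that follow was not tested.

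Wee1, Bhlhe40 and Bhlhe41 rose in knockout livers, and the 3 PAR activators and their counterpart Nfil3 did not pass the test. Wee1 was 5.3-fold, Bhlhe40 3.2-fold and Bhlhe41 2.4-fold higher in the fit of edgeR's quasi-likelihood test across all genes. In that fit 3 of the 9 members passed as higher and 0 as lower at an adjusted p under 0.05 (Benjamini-Hochberg). Of all 14069 genes tested, 20.4% passed, 9.8% as higher and 10.6% as lower. The 3 knockout and 3 wild-type values did not overlap for those same 3 members, and for 40.7% of all genes tested, so the members' share without overlap was near the background. The median log2 fold change was 0.48 over the 9 members and -0.02 over all genes tested. The members were chosen with earlier results of these data known, so their share is no measure of clock output genes at large. In bulk tissue, fewer cells of a type and less RNA per cell cannot be told apart.

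**Figure D1:**
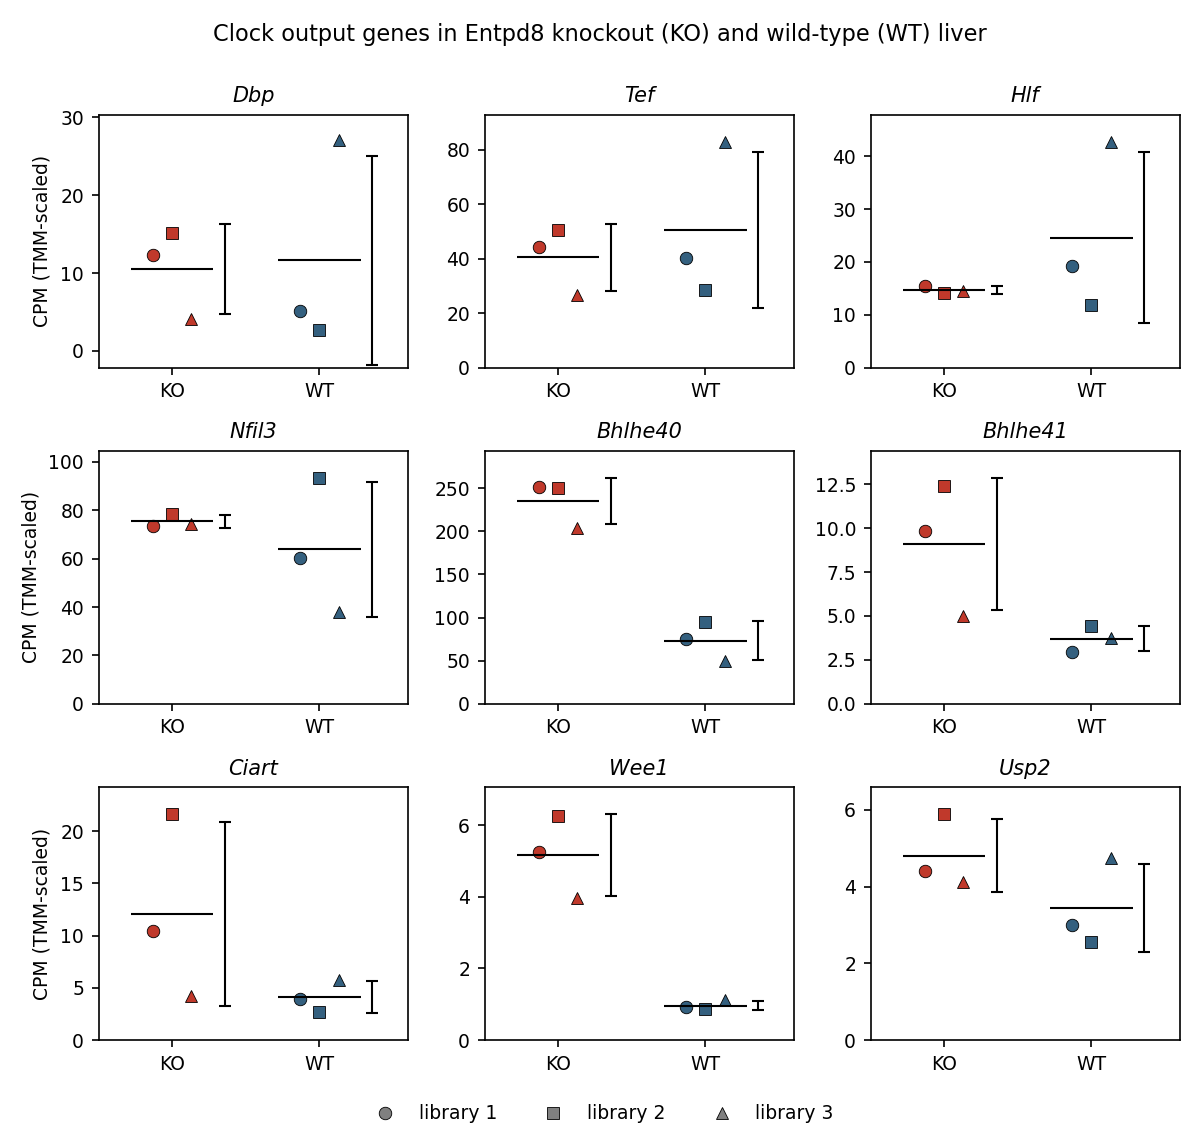
TMM-scaled CPM of each clock output gene by library, with a scale of its own per panel. Points are libraries, horizontal lines are group means and bars to their right are ± 1 SD (n = 3 per group). The 3 knockout libraries lie above the 3 wild-type libraries for Bhlhe40, Bhlhe41 and Wee1, and WT 3 is the highest library for Dbp, Tef and Hlf and the lowest for Nfil3 and Bhlhe40.

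Bhlhe40, a repressor induced by many signals as well as by the clock, rose clearly among the E-box repressors. Bhlhe40 (ENSMUSG00000030103, chromosome 6, 108660629 to 108666925, plus strand, GRCm38) measured 251, 249.7 and 204 CPM in KO 1, KO 2 and KO 3, against 75.7, 94.4 and 49.2 CPM in WT 1, WT 2 and WT 3. Every knockout library was at least 2 times the highest wild-type library, and WT 3 was the lowest of all. Its log2 fold change was 1.68 ± 0.23 (SE), with an adjusted p of 0.00501 in edgeR's quasi-likelihood test. The call held with each library left out in turn, at 1.46 to 1.91 on the log2 scale.

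Bhlhe41 (ENSMUSG00000030256, chromosome 6, 145858243 to 145865558, minus strand), its paralog, also rose, with far fewer reads. It measured 9.85, 12.4 and 5.03 CPM in KO 1, KO 2 and KO 3, against 2.98, 4.43 and 3.75 CPM in WT 1, WT 2 and WT 3. The groups stayed apart by a small margin, between KO 3 and WT 2. Its log2 fold change of 1.29 ± 0.33 (SE) had an adjusted p of 0.0313 in edgeR. This call ended without KO 1, KO 2, WT 1 or WT 3 (adjusted p up to 0.108) and with limma voom (adjusted p = 0.0662).

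Ciart (ENSMUSG00000038550, chromosome 3, 95878503 to 95882251, minus strand) varied most among the knockout livers. It measured 10.5, 21.6 and 4.18 CPM in KO 1, KO 2 and KO 3, against 3.91, 2.72 and 5.78 CPM in WT 1, WT 2 and WT 3. KO 1 and KO 2 were above every wild-type library and KO 3 lay among them. The log2 fold change was 1.55 ± 0.58 (SE) and did not pass (adjusted p = 0.102, edgeR). It passed without KO 3 (log2 fold change 1.96, adjusted p = 0.0336) and in DESeq2 (adjusted p = 0.00864), and it was 0.83 without KO 2.

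Per kilobase of its longest annotated transcript, Bhlhe40 exceeded Bhlhe41 50.3-fold, 39.6-fold and 80.1-fold in KO 1, KO 2 and KO 3, against 50.1-fold, 42.0-fold and 25.9-fold in WT 1, WT 2 and WT 3. The log2 ratio averaged 5.76 ± 0.52 in knockout and 5.24 ± 0.49 in wild-type livers (SD, n = 3 per group). The groups overlapped, and the two-sided exact permutation test gave p = 0.4, where 3 against 3 libraries cannot go below 0.1.

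Of the effector enzymes, Wee1 had the largest fold change of the 9 members. Wee1 (ENSMUSG00000031016, chromosome 7, 110122046 to 110143286, plus strand) phosphorylates the mitotic kinase Cdk1 and so restrains entry into mitosis. It measured 5.24, 6.26 and 3.98 CPM in KO 1, KO 2 and KO 3, against 0.909, 0.871 and 1.11 CPM in WT 1, WT 2 and WT 3. These are 206, 251 and 189 counts in KO 1, KO 2 and KO 3, and 33, 34 and 40 counts in WT 1, WT 2 and WT 3. All knockout libraries lay well above all wild-type libraries, and the wild-type libraries were close to each other. With a log2 fold change of 2.42 ± 0.26 (SE) and an adjusted p of 0.00227 in edgeR, it ranked 70 of 14069 genes by p. It passed with each library left out in turn, at 2.25 to 2.58 on the log2 scale.

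Usp2 (ENSMUSG00000032010, chromosome 9, 44067021 to 44095627, plus strand) is a rhythmic deubiquitinase with several isoforms that gene counts do not separate. It measured 4.40, 5.88 and 4.12 CPM in KO 1, KO 2 and KO 3, against 3.003, 2.56 and 4.75 CPM in WT 1, WT 2 and WT 3. WT 3 lay within the knockout range and the other wild-type libraries below it. The log2 fold change of 0.48 ± 0.28 (SE) did not pass (adjusted p = 0.249, edgeR).

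**Figure D2:**
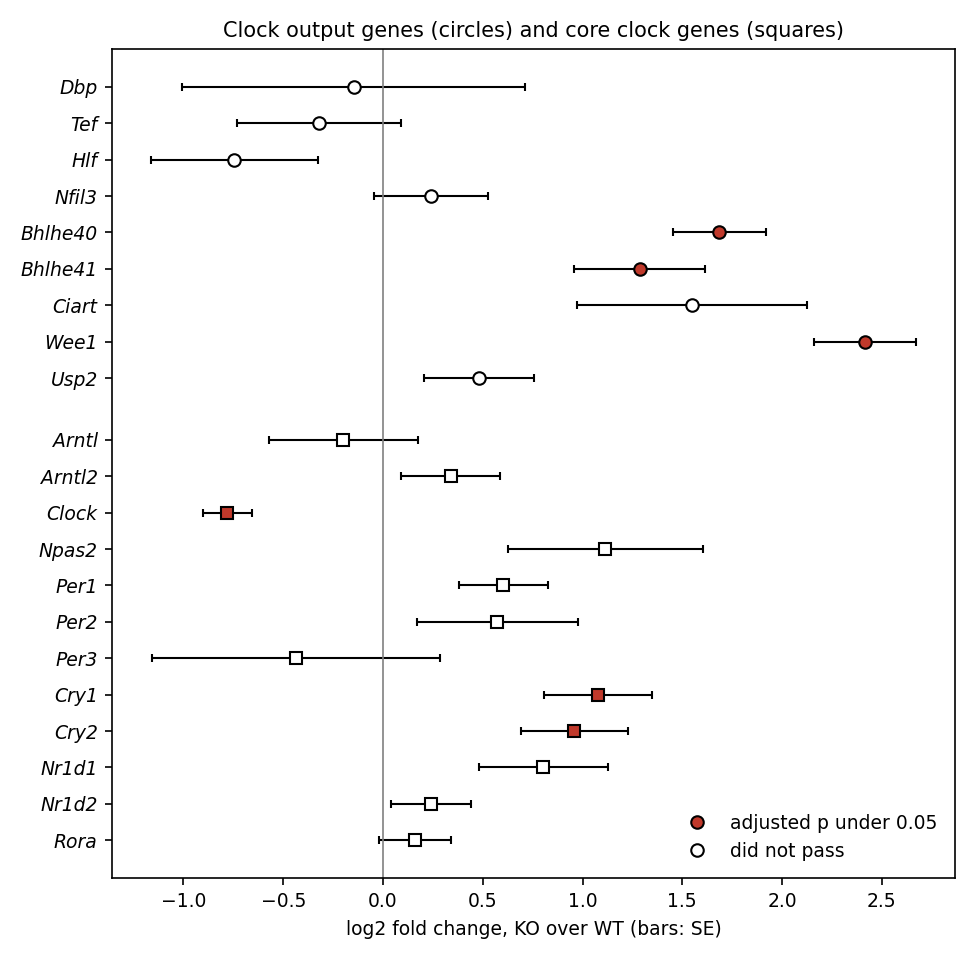
Log2 fold change of knockout over wild-type livers for the 9 clock output genes (circles) and core clock genes (squares), with bars of ± 1 SE. Filled symbols have an adjusted p under 0.05 in edgeR: Wee1 (2.42), Bhlhe40 (1.68), Bhlhe41 (1.29), Cry1 (1.08) and Cry2 (0.96) on the right and Clock (-0.78) on the left.

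None of the 3 PAR activators passed the test, and their libraries differed widely within genotypes. Dbp (ENSMUSG00000059824, chromosome 7, 45705088 to 45710203, plus strand), the activator best known for a large daily swing in liver, measured 12.3, 15.2 and 4.12 CPM in KO 1, KO 2 and KO 3, against 5.15, 2.69 and 27.1 CPM in WT 1, WT 2 and WT 3. The wild-type livers held both the highest and the lowest value, and WT 3 was 10.1 times WT 2. A log2 fold change of -0.15 ± 0.86 (SE) did not pass (adjusted p = 0.924, edgeR). It was 1.42 without WT 3 and 0.24 without KO 3, so its sign rested on single libraries. Dbp shares 737 bases with Sphk2, a sphingosine kinase gene read in the opposite direction, and the sources do not say if counting was stranded, so reads of the pair cannot be told apart with certainty. Sphk2 measured 21.4, 27.8 and 22.7 CPM in KO 1, KO 2 and KO 3, against 40.4, 23.5 and 49.2 CPM in WT 1, WT 2 and WT 3. Other members also share bases with genes read in the opposite direction. Summed over the libraries, the gene opposite Wee1 held 38 counts against 753 of Wee1. That opposite Ciart held 49 against 1934 of Ciart. No counts were at hand for the genes opposite Usp2 and Bhlhe41.

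Tef (ENSMUSG00000022389, chromosome 15, 81802421 to 81826863, plus strand) measured 44.3, 50.5 and 26.7 CPM in KO 1, KO 2 and KO 3, against 40.4, 28.3 and 82.9 CPM in WT 1, WT 2 and WT 3. Its libraries stood in the same order as those of Dbp within each genotype, with WT 3 highest and WT 2 lowest of the wild-type livers and KO 2 highest and KO 3 lowest of the knockout livers. Its log2 fold change of -0.32 ± 0.41 (SE) did not pass (adjusted p = 0.618, edgeR), and it was 0.23 without WT 3.

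Hlf (ENSMUSG00000003949, chromosome 11, 90336536 to 90390895, minus strand) was near one level in the knockout livers and spread in wild type. It measured 15.4, 14.0 and 14.6 CPM in KO 1, KO 2 and KO 3, against 19.3, 11.8 and 42.7 CPM in WT 1, WT 2 and WT 3. All knockout values lay between WT 2 and WT 1. Its log2 fold change of -0.74 ± 0.42 (SE) did not pass (adjusted p = 0.250, edgeR). It was -0.09 without WT 3, and without WT 2 it passed at -1.08 (adjusted p = 0.0491).

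The D-box repressor Nfil3 (ENSMUSG00000056749, chromosome 13, 52967209 to 52981073, minus strand) measured 73.6, 78.4 and 74.2 CPM in KO 1, KO 2 and KO 3, against 60.2, 93.3 and 38.0 CPM in WT 1, WT 2 and WT 3. Its wild-type libraries stood in the reverse order of those of Dbp, Tef and Hlf, with WT 2 highest and WT 3 lowest. The log2 fold change of 0.24 ± 0.29 (SE) did not pass (adjusted p = 0.586, edgeR) and was -0.029 without WT 3.

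Because these 4 proteins bind the same element, the summed level of Dbp, Tef and Hlf per kilobase of transcript was set against that of Nfil3 in each library. This ratio was 0.536, 0.574 and 0.297 in KO 1, KO 2 and KO 3, against 0.518, 0.217 and 2.19 in WT 1, WT 2 and WT 3. The activators exceeded the repressor in WT 3 and were below it in the 5 other libraries. The log2 ratio averaged -1.15 ± 0.52 in knockout and -0.67 ± 1.68 in wild-type livers (SD, n = 3 per group), with p = 0.9 in the two-sided exact permutation test. The knockout minus wild-type difference was -0.48, and 0.43 without WT 3.

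**Figure D3:**
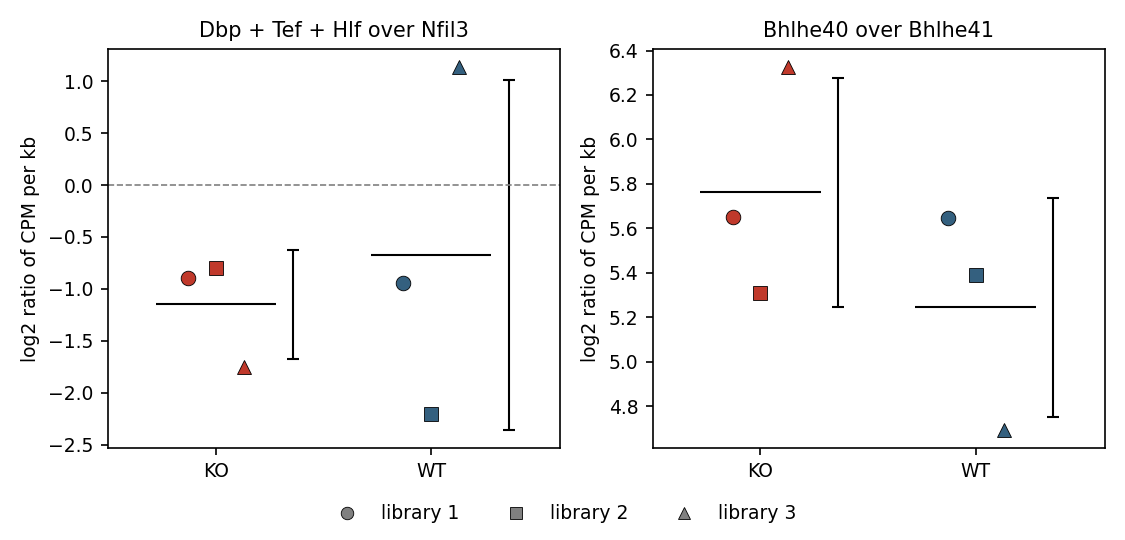
Log2 ratio of CPM per kilobase in each library, for Dbp, Tef and Hlf summed over Nfil3 on the left and for Bhlhe40 over Bhlhe41 on the right. Lines are group means and bars ± 1 SD (n = 3 per group). WT 3 is the highest library on the left, at 1.13, and the lowest on the right, at 4.69.

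The spread within a genotype was itself uneven between members. Over the 3 wild-type livers the range of log2 CPM was 3.31 for Dbp, 1.85 for Hlf, 1.55 for Tef and 1.29 for Nfil3, where the median over 10812 genes with a mean log2 CPM of at least 1 was 0.37. A range at least as wide as that of Dbp was seen in 0.185% of these genes, and as that of Nfil3 in 5.09%. Over the 3 knockout livers the widest ranges were those of Ciart (2.35, reached by 0.250% of these genes), Dbp (1.87) and Bhlhe41 (1.30), while Hlf (0.14) and Nfil3 (0.09) varied less than the median gene (0.29). In the knockout livers KO 2 was highest for 7 members, and KO 3 was lowest for Dbp, Tef, Bhlhe40, Bhlhe41, Ciart, Wee1 and Usp2.

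**Figure D4:**
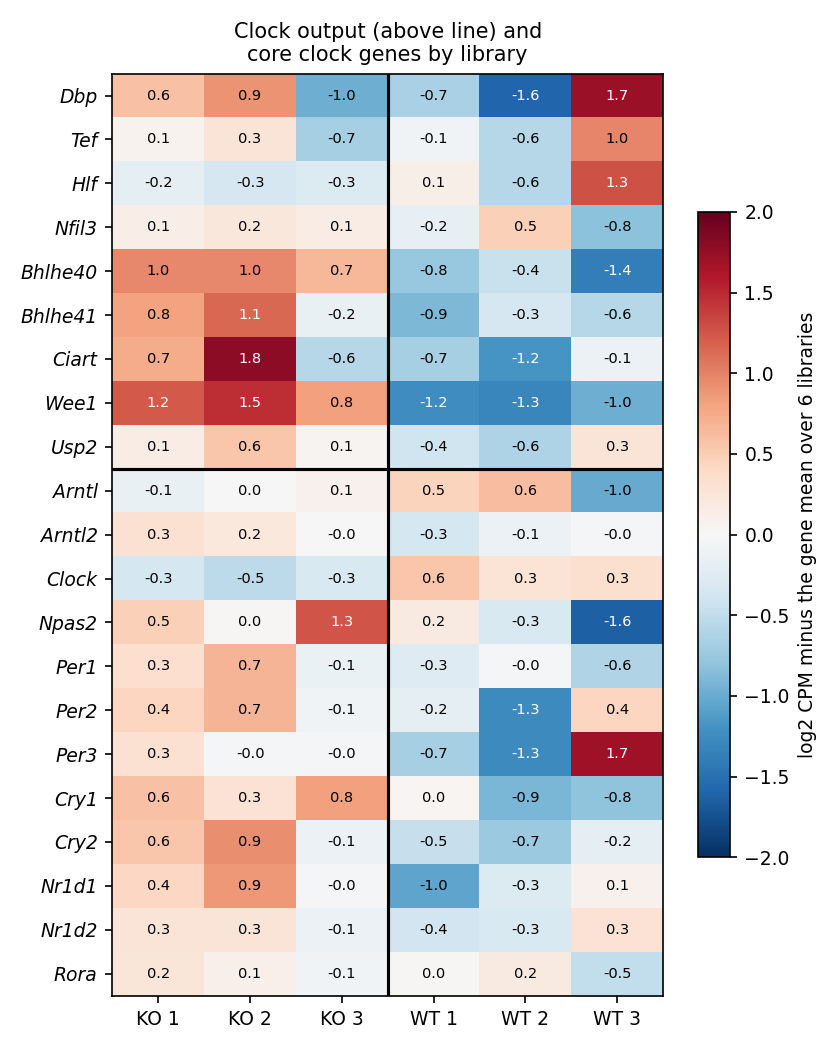
Log2 CPM of each gene minus its mean over the 6 libraries, for the clock output genes above the horizontal line and the core clock genes below it, with knockout libraries on the left. Red is above and blue below the gene's mean. In WT 3, Dbp, Tef, Hlf and Per3 are above their means (1.73, 0.97, 1.27 and 1.70) while Nfil3, Bhlhe40, Arntl and Npas2 are below theirs (-0.82, -1.38, -1.01 and -1.64).

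**Figure D5:**
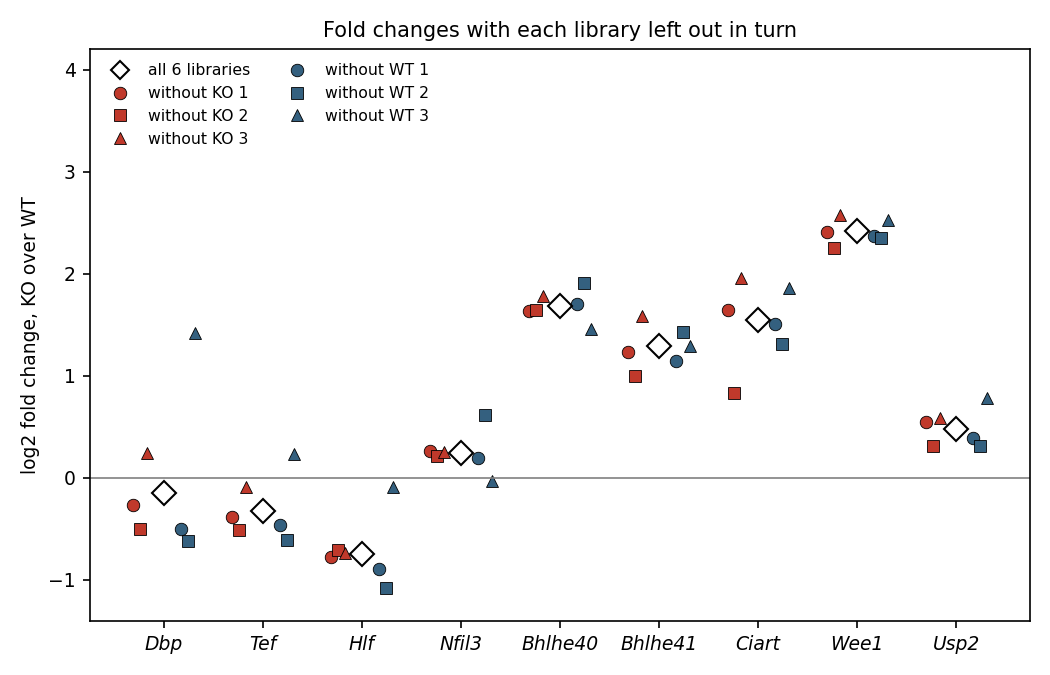
Log2 fold change of each clock output gene with all 6 libraries (diamonds) and with each library left out in turn. Wee1, Bhlhe40, Ciart, Bhlhe41 and Usp2 stay above 0 in all 6 fits, and Dbp moves between -0.62 and 1.42.

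Per kilobase of transcript, the order of the mean levels in knockout livers was Bhlhe40 (75.5 CPM per kb), Nfil3 (37.2), Tef (9.19), Ciart (6.24), Dbp (5.73), Hlf (2.60), Wee1 (1.51), Bhlhe41 (1.48) and Usp2 (1.24). By the ranges over the 3 knockout libraries, Bhlhe40 lay apart from Nfil3, Nfil3 from Tef and Hlf from Wee1, and the other neighbours overlapped. In wild-type livers the order was Nfil3 (31.5 CPM per kb), Bhlhe40 (23.5), Tef (11.5), Dbp (6.34), Hlf (4.36), Ciart (2.13), Usp2 (0.889), Bhlhe41 (0.606) and Wee1 (0.282). By the same rule, the ranges over the 3 wild-type libraries lay apart for Ciart and Usp2 and for Bhlhe41 and Wee1, and the other neighbours overlapped. Within each wild-type library Nfil3 was nonetheless above Bhlhe40, Tef above Dbp and Hlf above Ciart, as Tef was above Ciart within each knockout library. Wee1 was thus the least abundant member in wild type and lay level with Bhlhe41 and Usp2 in knockout livers.

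The oscillator that drives these outputs was read from 14 core clock genes. Of these 13 were tested, 3 passed as higher and 1 as lower (all genes: 9.8% and 10.6%). This list and those below were chosen with earlier results of these data known. Clock fell, with 37.0, 32.9 and 38.2 CPM in KO 1, KO 2 and KO 3, against 69.5, 57.2 and 58.8 CPM in WT 1, WT 2 and WT 3 (log2 fold change -0.78 ± 0.12 (SE), edgeR adjusted p of 0.00710). That call held with each library left out in turn. The Cryptochromes Cry1 (1.08 ± 0.27, adjusted p = 0.0307, edgeR) and Cry2 (0.96 ± 0.27, adjusted p = 0.0413) rose. Neither passed without KO 1. Cry1 also did not pass without KO 3, WT 2 or WT 3, and Cry2 without KO 2, WT 1 or WT 2 (adjusted p up to 0.124 over these fits). With no low-count filter neither passed (adjusted p = 0.0550 for Cry1 and 0.138 for Cry2, edgeR), and Cry2 also missed the threshold with upper-quartile scaling (0.0509) and with library totals alone (0.0550).

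The core genes named next did not pass in edgeR. Among the partners and relatives of Clock, the log2 fold change was -0.20 ± 0.37 for Arntl, 0.34 ± 0.25 for Arntl2 and 1.11 ± 0.49 for Npas2 (SE). The Period genes had log2 fold changes of 0.60 ± 0.22 (Per1), 0.57 ± 0.40 (Per2) and -0.43 ± 0.72 (Per3). Those of nuclear receptor genes of the clock were 0.80 ± 0.32 (Nr1d1), 0.24 ± 0.20 (Nr1d2) and 0.16 ± 0.18 (Rora), and Rorb was listed at 0 in all libraries. Per1 and Nr1d1 passed in DESeq2 (adjusted p = 0.0449 and 0.0358), and Per1 also without KO 3. Arntl passed as lower without WT 3 (-0.56, adjusted p = 0.0395).

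Among the wild-type livers, WT 3 also lay apart for some core genes, of which Per3, Arntl and Npas2 are given here after their values were seen. Per3, which normally peaks close to Dbp, had 1.40, 0.897 and 7.41 CPM in WT 1, WT 2 and WT 3. Arntl, which peaks opposite to Dbp, had 17.4, 19.5 and 6.25 CPM in the same libraries, and Npas2 had 2.95, 2.10 and 0.805 CPM. WT 3 was highest for Per3 and lowest for Arntl and Npas2, and WT 2 was lowest for Per3 and highest for Arntl. Per2 (8.79, 4.125 and 13.6 CPM) and Cry2 (23.1, 19.0 and 28.15 CPM in WT 1, WT 2 and WT 3) stood in the order of Per3. Per1 (39.1, 45.6 and 30.8 CPM) and Rora (93.0, 103 and 64.9 CPM) stood in that of Arntl. Others stood in another order, among them Nr1d1 and Cry1. In WT 1, WT 2 and WT 3, Nr1d1 had 28.9, 49.3 and 63.4 CPM and Cry1 had 13.2, 6.74 and 7.30 CPM. The knockout values of Arntl (11.5, 12.7 and 13.4 CPM) and Per3 (2.77, 2.19 and 2.21 CPM in KO 1, KO 2 and KO 3) lay between the wild-type extremes of the same gene.

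Of 11 kinases and ubiquitin ligases that mark clock proteins for turnover, 5 rose and 0 fell (all genes: 9.8% and 10.6%). Among them were Fbxw11 (log2 fold change 0.64), Csnk1e (0.62), Gsk3b (0.50) and Siah2 (0.41), each with an adjusted p between 0.0195 and 0.0397 in edgeR. Without KO 1, WT 1 or WT 3, 0 of the 11 passed, without KO 2 or KO 3 1 passed, and with library totals alone or no low-count filter 2 passed.

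Genes downstream of the PAR activators were read from 22 targets and detoxification genes. Of these 20 were tested, 8 rose and 2 fell (all genes: 9.8% and 10.6%). Cyp2c37 (log2 fold change 1.44 ± 0.21 (SE)), Cyp2c54 (1.19 ± 0.24), Gsta3 (1.14 ± 0.18), the efflux pump gene Abcb1a (1.08 ± 0.24), Cyp2c50 (1.01 ± 0.18) and Cyp2a5 (0.91 ± 0.22) were among those that rose (adjusted p up to 0.0253, edgeR). The falls, named after their values were seen, were those of Cyp2b10 (-2.10 ± 0.56) and of Alas1 (-0.61 ± 0.18), which starts heme synthesis. Cyp2b10 had 8.63, 6.90 and 6.39 CPM in KO 1, KO 2 and KO 3, against 61.7, 15.9 and 16.05 CPM in WT 1, WT 2 and WT 3. WT 1 was thus far above the other wild-type libraries. With each library left out in turn, its log2 fold change ran from -2.41 to -1.14. Reads of the closely similar Cyp2c, Cyp2a, Cyp2b and Gst genes may be split unevenly among them. Without KO 1, 2 passed as higher, Cyp2c37 and Gsta3, and 0 as lower, and 0 also passed as lower with limma voom or no low-count filter. Abcb1a lost the call without KO 1, KO 3 or WT 3, Cyp2a5 without KO 1, KO 3, WT 1 or WT 2, Cyp2b10 without KO 1, KO 2 or KO 3, and Alas1 without each library except WT 3.

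Nr1i3, which encodes the receptor CAR and is a known PAR target, and the bile acid enzyme gene Cyp7a1 were named after their values were seen. Nr1i3 had 46.4, 40.9 and 59.4 CPM in KO 1, KO 2 and KO 3, against 37.5, 14.1 and 129.8 CPM in WT 1, WT 2 and WT 3. Cyp7a1 had 32.3, 22.7 and 47.4 CPM in KO 1, KO 2 and KO 3, against 10.2, 3.41 and 65.3 CPM in WT 1, WT 2 and WT 3. WT 3 was highest and WT 2 lowest for both genes, the order seen for Dbp, Tef and Hlf, and neither passed (adjusted p = 0.792 and 0.808, edgeR). Not all genes of the list stood in this order. Alas1 had 244, 297 and 184 CPM and Cyp2c50 443, 344 and 285 CPM in WT 1, WT 2 and WT 3.

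The next list was chosen with earlier results of these data known, so its share is no measure of rhythmic genes at large. Of 28 other rhythmic liver transcripts, all tested, 14 rose and 1 fell (all genes: 9.8% and 10.6%). Among those with the lowest p were Tubb2a (log2 fold change 1.88 ± 0.17 (SE)), Rgs16 (3.40 ± 0.33), the glucose transporter Slc2a2 (1.51 ± 0.19) and Elovl3, a fatty acid elongase (1.75 ± 0.23), with adjusted p between 0.00133 and 0.00423 in edgeR. These 4 calls held with each library left out in turn, and the list then counted 8 to 14 higher. Pck1, of gluconeogenesis, was the fall (-0.74 ± 0.22, named after its value was seen), and its call ended without each library except WT 2.

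The partners of Wee1 in mitotic entry were lower in knockout livers where they passed, as were 10.6% of all genes tested. Of 13 such genes 11 were tested, 0 rose and 5 fell, namely Cdk2 (log2 fold change -0.72 ± 0.14 (SE)), Cdc25a (-0.79 ± 0.17), whose phosphatase opposes Wee1, cyclin A2 gene Ccna2 (-1.51 ± 0.41), cyclin B1 gene Ccnb1 (-2.98 ± 0.79) and Plk1 (-1.94 ± 0.55), with adjusted p between 0.0145 and 0.0410 in edgeR. Ccnb1 and Plk1 were named after their values were seen. Ccnb1 had 0.407, 0.175 and 0.105 CPM in KO 1, KO 2 and KO 3, against 3.61, 0.538 and 1.25 CPM in WT 1, WT 2 and WT 3. Plk1 had 13, 11 and 11 counts in KO 1, KO 2 and KO 3, against 67, 17 and 34 in WT 1, WT 2 and WT 3. Ccna2, Ccnb1 and Plk1 each lost the call without KO 1, KO 2, KO 3 or WT 1, and Plk1 also without WT 3. Cdc25a lost it without KO 1 or KO 3. Without KO 1, 0 of the 11 passed. With each library left out in turn 0 to 7 passed as lower, while with limma voom 3 passed.

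Of 12 substrates and regulators of Usp2, 11 were tested, 3 rose and 1 fell (all genes: 9.8% and 10.6%). Fasn, the fatty acid synthase that Usp2 protein stabilises in human cells, rose by 1.81 ± 0.20 and Mdm2 by 0.64 ± 0.14 on the log2 scale (SE), Cry1 is given above, and the ubiquitin ligase gene Itch fell by 0.43 ± 0.11 (adjusted p up to 0.0307, edgeR). The call of Fasn held with each library left out in turn. That of Mdm2 ended without KO 1, KO 2, KO 3 or WT 1 and that of Itch without each library except WT 2. Mdm2 also missed the threshold with library totals alone, Cry1 and Itch with no low-count filter, and Itch with the length trend removed.

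The genes most like each member were found by the root-mean-square difference between log2 CPM profiles over the 6 libraries, each centred on its own mean, among 10315 protein-coding genes. For Wee1 these were Srebf1 (0.199 log2 units) and Coq8a (0.220), and for Bhlhe40 they were Hspa8 (0.123) and Itpkc (0.130). Bhlhe41 was nearest to Colec12 (0.170) and Rgs1 (0.172), Ciart to Wipf3 (0.382) and Fosb (0.386), and Usp2 to Zfyve21 (0.0913) and Bhmt2 (0.0949). Dbp was nearest to Fbxo21 (0.469) and Clec2d (0.548), Tef to Prkcz (0.150) and Clec2d (0.153), Hlf to Zfp512b (0.110) and Trp53inp2 (0.156), and Nfil3 to Pkdcc (0.0874) and Cfap43 (0.109). The median over the candidate genes was 1.18 for Dbp, 1.21 for Wee1, 1.02 for Ciart, 0.939 for Bhlhe40 and 0.770 for Bhlhe41. It was lower for Hlf (0.641), Tef (0.592), Nfil3 (0.484) and Usp2 (0.4695). Among the members themselves the closest pair was Tef and Hlf (0.339) and the most distant was Hlf and Wee1 (1.52), with Dbp and Nfil3 at 1.46.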

How the data were processed

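Poly(A)-enriched RNA of 6 mouse livers was sequenced. Per the submitters' processing notes, Trim Galore, STAR, Salmon and GRCm38 were used; their versions, settings and gene annotation are not stated in the sources at hand. From the values, the authors deposited expected counts, as estimated for each gene (8.38% to 9.32% of them not whole). Groups follow the genotype labels.

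Counts were rounded, filtered with filterByExpr and scaled by TMM, leaving 14069 genes. Genotype was tested two-sided with edgeR 4.0.16 (robust quasi-likelihood fit, R 4.3.3), with Benjamini-Hochberg adjustment over all genes tested and a threshold of 0.05. A standard error is the log2 fold change over the square root of F. CPM uses TMM-scaled totals. The fit was tested on simulated data. Alternatives included limma 3.58.1 (voom) and DESeq2 1.42.0. Symbols matched 45143 of 45706 genes, and the 563 others (0.0379% to 0.0509% of counts) stayed in. Positions and transcript lengths came from GENCODE M21 (GRCm38). Members and lists were chosen with earlier results of these data known. Named genes are the members, Entpd8, the tested core clock genes and, in each other list, up to 6 of lowest p with a mean log2 CPM of at least 0; others were chosen after their values were seen, Sphk2 for its overlap with Dbp. The 2 nearest genes per member needed a mean log2 CPM of at least 1. Within groups, pairs of libraries differed by 34.1 to 139 times counting variance, more than reading 1 library again would give. Whether 2 libraries came from 1 mouse cannot be told from this. Figures used matplotlib 3.10.9. Some listed genes are counted but not reported by name here.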

Additional observations from a re-analysis of the deposited data

How the results depend on the processing

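Wee1 and Bhlhe40 passed as higher under all 17 alternatives, with log2 fold changes of 2.25 to 2.58 and 1.46 to 1.91. The number of members higher was 3, and 4 with DESeq2 and 2 with limma voom; without 1 library it ran from 2 to 4, and the number lower from 0 to 1. Bhlhe41 lost its call in 6 of 17. Dbp turned positive with limma voom (0.33), without KO 3 (0.24) and without WT 3 (1.42). Without WT 3, Tef was 0.23, Nfil3 -0.029, Per3 1.05, Rora -0.016 and the balance of Dbp, Tef and Hlf against Nfil3 0.43. That balance ran from -1.24 to 0.43 without 1 library. Per3 was 0.19 with limma voom, and Arntl 0.084 without WT 2. With 1 library left out in turn, log2 fold changes ran from -0.62 to 1.42 (Dbp), -0.61 to 0.23 (Tef), -0.029 to 0.62 (Nfil3), -0.56 to 0.084 (Arntl), -0.88 to 1.05 (Per3) and -0.016 to 0.30 (Rora). The cause was not tested in any of these cases.

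Among all genes, 2871 were called, and 603 to 3080 without 1 library. Same-numbered libraries of the genotypes did not deviate together (correlations of -0.08, 0.01 and -0.09), so the numbers were not taken as pairs. With the replicate block, 1468 genes and 2 members (Wee1 and Bhlhe40) were called, Dbp was 0.50, and Per3 was 0.15. Under this block 0 of the 11 kinases and ligases passed, 3 of the 11 partners of Wee1 passed as lower, and Cry2 missed the threshold. Library totals alone moved the median of all genes to -0.10.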
